A study of Bos taurus with 12 samples.

Results

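The genes described are the expressed ZNF genes of cattle precursor adipocytes, the cells that can mature into fat cells. They were chosen by symbol and by level: a symbol of ZNF followed by digits only, and a mean of at least 2 CPM, the library-scaled read count, over all 12 libraries. That rule took 210 of the 266 such symbols in the count table (78.9%), which names 29240 genes. Because the mean level of these libraries chose the members, their mean levels are given as a description with no test. All 210 were also among the 16300 genes tested for differences, so no member was lost to a filter on low counts.

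The study measured polyadenylated RNA of Bos taurus precursor adipocytes 48 h after transfection, in 4 groups of 3 libraries each. The groups were si, cells given an interfering RNA whose target the labels do not name, si_NC, cells given its negative control, OE, cells given the plasmid pcDNA3.1-HGFAC, which carries the HGFAC coding sequence, and OE_NC, cells given pcDNA3.1-NC. HGFAC is the activator of hepatocyte growth factor, a secreted protease. The labels do not say that the 3 libraries of a group were separate cultures, and p-values therefore reflect only how much these libraries vary, which can be technical variation. In such bulk RNA, fewer cells of a type and less RNA per cell cannot be told apart.

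ZNF is a naming prefix for proteins that fold short loops around zinc, most of which bind DNA through arrays of fingers built on paired cysteines and histidines. The largest group in mammals, found in gene clusters, also carries a KRAB domain, which recruits the scaffold TRIM28. Through it come histone methyltransferases and HP1 proteins that silence the bound DNA, often a transposable element. Others have SCAN or BTB domains, and a few act on RNA, ribosomes or the mitotic spindle. In mice, the counterparts of ZNF423, ZNF521, ZNF516 and ZNF638 are known from fat cell commitment and differentiation. Protein, promoter and transcript sequences of these genes were not used here, so domains are named from human annotation as background.

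Each library held 29 to 42.7 M counts, and the ZNF genes together took 0.389 to 0.430% of them. The si libraries were all deeper (36.0 to 42.7 M) than the si_NC libraries (29 to 32.3 M), and the part of depth in the si results was not tested. HGFAC, the gene on the plasmid, averaged 161 ± 26.3 normalised CPM in OE and 0.393 ± 0.127 in OE_NC (SD, n = 3 each). It averaged 0.658 ± 0.165 in si and 0.83 ± 0.0988 in si_NC, with a log2 change of -0.35 (edgeR adjusted p = 0.512). The labelled cell type showed stromal markers (VIM at 5940 CPM, COL1A1 at 3767, PDGFRA at 274.5), while the preadipocyte markers DLK1 and CD34 averaged 0.0698 and 0.0286 CPM. ADIPOQ of mature fat cells (0.06 CPM), PTPRC of blood cells (0.0283) and EPCAM of epithelium (0.0329) were near 0. So were MYOD1 (0.0433) and MYF5 (0.0331) of myogenic cells. Other markers of these types were detected: in the mature fat cell list FABP4 at 7.07 CPM, GPD1 at 2.45, PLIN1 at 1.41 and CIDEC at 1.11. The immune list had CD68 at 4.39 CPM, CD163 at 2.4 and CD14 at 1.4, and the epithelial list KRT19 at 1.905. The endothelial marker VWF averaged 1.465 CPM. The 4 muscle markers summed to 702.4 to 733.4 normalised CPM in OE and 501.6 to 574.9 in OE_NC, nearly all from DES, which rose in OE (log2 change 0.42, edgeR adjusted p = 0.0399). Of the stromal markers, THY1 rose in si (log2 change 0.66, edgeR adjusted p = 0.0263), and it was higher in OE_NC than in si_NC (log2 difference 1.17, edgeR adjusted p = 0.000151). The part of DES and THY1 in the results below was not tested. Replicate 3 of si and replicate 2 of si_NC stood apart from the other si and si_NC libraries on the second principal component (-24.6 and -22.3, against 12.2 to 17.7), and the counts of calls and of signs over all members are also given without this pair.

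The members covered a wide range of abundance, and the 3 most abundant per length act on RNA and ribosomes. On the deposited RPKM scale, which divides by exon length and library total, the median over the 210 members was 2.09, against 2.94 over all genes tested. A mean of at least 1 RPKM was reached by 166 members, at least 5 by 39, and at least 10 by 20. ZNF622, a factor in maturation of the large ribosomal subunit, led with a mean of 116.4 RPKM. ZNF326, a subunit of the human complex that couples RNA polymerase II to splicing, followed with 106.53 RPKM. ZNF638, an RNA-binding nuclear protein that in mouse acts as a cofactor of C/EBP proteins in fat cell differentiation, came next with 52.965 RPKM.

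The next in order were ZNF830, a nuclear protein that early mouse embryos require, at 33.353 RPKM, ZNF771 at 31.259 and ZNF664 at 27.235. ZNF512 stood at 20.942 RPKM and the nucleolar protein ZNF330 at 20.39. ZNF131, a BTB-domain factor, had a mean of 16.742 RPKM and the SCAN-domain protein ZNF24 16.104. Places 11 to 15 lay close together, with ZNF146 at 13.418 RPKM, ZNF609 at 13.099, ZNF593 at 12.745, ZNF106 at 12.671 and ZNF768 at 12.507. The order among these 5 is not firm: the SD of ZNF593 within a group reached 3.734 RPKM in OE_NC (n = 3) and that of ZNF768 2.749 RPKM in si_NC.

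**Figure D1:**
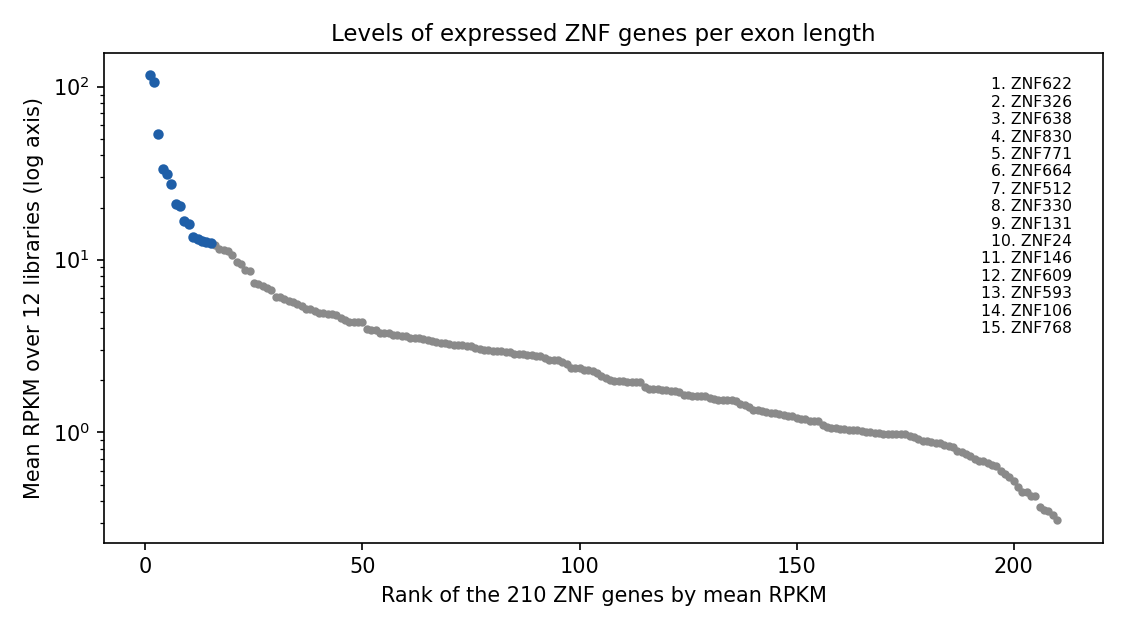
Mean RPKM over the 12 libraries (log axis) of the 210 ZNF genes, ordered from the highest to the lowest; the first 15 are in blue and are named. The first 2 lie above 100 RPKM and the median member at 2.09 RPKM.

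Per library and not per length, the member median was 8.59 CPM, against 8.43 CPM over all genes tested. The members had to reach a mean of 2 CPM, while the genes tested include genes below it (PECAM1 at 0.365 CPM). These medians, and those in RPKM above, therefore do not show how abundant members are beside genes of a like threshold. Member exons were longer, with a median of 4416.5 bases against 2923 bases over all genes tested. The 10 members with the highest CPM held 38.1% of all member CPM. The smallest count of any member in any library was 36 and the median 304. In each library 66.2 to 69.3% of the nonzero counts were even. Whether both reads of a pair were counted was not tested, so the number of separate fragments behind a count is not known. With all counts halved, 5 members were called in si and 5 in OE. At the threshold, the members just inside were ZNF566 (2.198 CPM), ZNF672 (2.12 CPM) and ZNF782 (2.094 CPM), and the genes just outside were ZNF770 (1.999 CPM), ZNF300 (1.99 CPM) and ZNF710 (1.947 CPM).

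A large share of the members sit in clusters. Chromosome 18 held 64 of the 210 (30.5%), though 5.77% of all genes tested lie there, and chromosomes 25 and 7 held 18 and 17. Of the members, 97 had at least 2 other ZNF genes starting within 500 kb, 33 had 1 and 80 had none. The median level was 1.72 RPKM for the 97, 1.65 RPKM for the 33 and 2.98 RPKM for the 80. Exon bases were shared with another gene by 34 members. Whether counting used strand, and how reads in shared bases were assigned, is not given in the sources used here. ZNF233 lies wholly inside exons of ZNF227 on the same strand, so reads counted for ZNF233 also lie in ZNF227 exons. ZNF410 shares 50.2% of its exon bases with FAM161B.

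In si cells 5 ZNF genes fell and none rose against si_NC. ZNF226, ZNF664, ZNF45, ZNF684 and ZNF512 were the 5, all by less than 2-fold. The test was edgeR's quasi-likelihood F test with Benjamini-Hochberg adjustment over all 16300 genes and a threshold of 0.05. The 5 make up 2.38% of the members, close to the 2.54% of all genes tested that were called in either direction. Falls were called for 1.62% of all genes and rises for 0.92%. At an unadjusted p under 0.05, 24 members (11.4%) were lower and 5 (2.38%) higher, where 9.88% of all genes were lower and 9.03% higher. DESeq2 called 10 members, all lower, and none higher, among 1125 genes called in the whole table.

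ZNF226, which carries a KRAB domain in human, lies on chromosome 18, bases 52119100 to 52148308, as the count table places it. It had 17.1, 18.8 and 16.5 normalised CPM in si, against 23.6, 24.96 and 22.6 in si_NC. Its groups did not overlap, and it fell by 0.44 on the log2 scale (standard error 0.084, edgeR adjusted p = 0.0163). ZNF45, its neighbour at bases 52090493 to 52107038 and also a KRAB protein in human, had 23.1, 22.6 and 25.8 normalised CPM in si and 30.9, 33.3 and 30.5 in si_NC. Every si library was again below every si_NC library, and ZNF45 fell by 0.41 on the log2 scale (standard error 0.086, edgeR adjusted p = 0.0248).

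ZNF664, on chromosome 17 (51720409 to 51723790), was one of the most abundant members. It had 70.1, 70.2 and 80.4 normalised CPM in si, against 95.2, 91.3 and 96.7 in si_NC. The highest si library remained below the lowest si_NC library, and the log2 change was -0.36 (standard error 0.072, edgeR adjusted p = 0.0203). ZNF512, on chromosome 11 (72075362 to 72106385), had 62.1, 61.7 and 65.4 normalised CPM in si and 75.8, 77.0 and 73.3 in si_NC. Its change was the smallest of the 5, a log2 change of -0.26 (standard error 0.064, edgeR adjusted p = 0.0469), with little spread inside either group.

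ZNF684, a KRAB protein in human encoded on chromosome 3 (105614345 to 105644335), showed the largest fitted difference of all members in si. It had 7.23, 8.27 and 4.81 normalised CPM in si, against 11.2, 10.3 and 10.9 in si_NC. The lowest value came from replicate 3 of si, one of the libraries that stood apart, and the log2 change was -0.67 (standard error 0.162, edgeR adjusted p = 0.042). It was the single member both called and changed by at least 1.5-fold. All 5 falls were also called when si replicate 3 and si_NC replicate 2 were left out together, among 9 members called in all (4.29%, beside 6.7% of all genes tested in that fit).

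The 5 members with the smallest unadjusted p among those higher in si were ZNF438, ZNF423, ZNF568, ZNF350 and ZNF574, and none passed the test. ZNF438 had 4.84, 3.59 and 4.13 normalised CPM in si and 3.08, 3.27 and 2.40 in si_NC. That is a log2 difference of 0.52 with a standard error of 0.173, and the edgeR adjusted p was 0.12.

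Calls in si moved with single libraries, over all genes as well as members. All genes called, 414 in the main fit, numbered 73, 69 and 685 without si replicates 1, 2 and 3. They numbered 56, 1083 and 135 without si_NC replicates 1, 2 and 3. Without si replicate 1 or si_NC replicate 1 none of the 210 members was called in si, without si_NC replicate 3 the count was 1, without si replicate 2 it was 2, without si replicate 3 it was 6, and without si_NC replicate 2 it was 9. None of the 5 was called in all 6 refits that left out a library: ZNF226 was called in 4, ZNF684 in 3, ZNF664 and ZNF45 in 2, and ZNF512 in 1. Their log2 changes stayed below 0 in all of those refits. In a fit of the si and si_NC libraries alone none of the members was called, where 8 genes were called in the whole table.

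In OE cells the picture ran the other way: 5 ZNF genes rose and none fell against OE_NC. The 5 were ZNF180, ZNF652, ZNF605, ZNF35 and ZNF638. They make up 2.38% of the members, under the 4.47% of all genes tested that were called in either direction. Rises were called for 2.22% of all genes and falls for 2.25%. At an unadjusted p under 0.05, 39 members (18.6%) were higher and 6 (2.86%) lower, against 11.1% higher and 11.8% lower of all genes. DESeq2 called 14 members higher and 1 lower, among 1546 genes called in the whole table.

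ZNF180, a KRAB protein in human from the chromosome 18 cluster that holds ZNF45 and ZNF226 (52297464 to 52324434), had the largest fitted change of the 5. It had 10.2, 11.6 and 11.8 normalised CPM in OE, against 7.15, 7.46 and 8.05 in OE_NC. The groups did not overlap, and it rose with a log2 change of 0.565 (standard error 0.1, edgeR adjusted p = 0.0132). ZNF652, a DNA-binding partner of the corepressor CBFA2T3 in human, lies on chromosome 19 (37239624 to 37307728). It had 36.9, 39.7 and 35.9 normalised CPM in OE and 24.1, 29.5 and 27.0 in OE_NC. All OE libraries were above all OE_NC libraries, with a log2 change of 0.48 (standard error 0.09, edgeR adjusted p = 0.0161).

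ZNF605, a KRAB protein in human on chromosome 17 (43937629 to 44001160), had 23.2, 23.8 and 24.98 normalised CPM in OE, against 15.8, 19.0 and 19.1 in OE_NC. It rose with a log2 change of 0.42 (standard error 0.092, edgeR adjusted p = 0.0286). ZNF35, on chromosome 22 (16448663 to 16461755), had 22.0, 21.7 and 22.2 normalised CPM in OE and 17.4, 17.6 and 16.7 in OE_NC. Its libraries agreed closely within each group, and the log2 change was 0.35 (standard error 0.086, edgeR adjusted p = 0.0374). ZNF638, on chromosome 11 (13156084 to 13246846), had 422, 419 and 413 normalised CPM in OE, against 325, 359 and 373 in OE_NC. That is the smallest change among the 5 in relative terms, a log2 change of 0.25 (standard error 0.064, edgeR adjusted p = 0.0434), carried by the most abundant member per library.

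Among members lower in OE, the smallest unadjusted p-values belonged to ZNF444, ZNF787, ZNF593, ZNF706 and ZNF428, and none passed the test. ZNF444, a SCAN-domain factor, had 5.32, 3.79 and 4.28 normalised CPM in OE and 9.33, 5.91 and 5.87 in OE_NC. Its log2 difference of -0.65 (standard error 0.184) was the lowest of all members and missed the threshold (edgeR adjusted p = 0.0563). DESeq2 and a scaling by library totals each called it, with adjusted p-values of 0.0146 and 0.043. ZNF131 missed the threshold on the other side, with a log2 difference of 0.25 and an edgeR adjusted p of 0.0504.

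The OE calls, too, moved with single libraries, over all genes as well as members. All genes called, 728 in the main fit, numbered 225, 19 and 35 without OE replicates 1, 2 and 3. They numbered 45, 32 and 758 without OE_NC replicates 1, 2 and 3. Without OE replicate 2, OE replicate 3 or OE_NC replicate 1, none of the members was called. Without OE_NC replicate 2 the count was 1, without OE replicate 1 it was 2, and without OE_NC replicate 3 it was 6. ZNF652 was called in 3 of these 6 refits, ZNF180 in 2, ZNF605 and ZNF638 in 1 and ZNF35 in none, while every log2 change stayed above 0. With si replicate 3 and si_NC replicate 2 left out of the shared fit, 17 members rose and 2 fell, the first 5 among them. These 19 are 9.05% of the members, beside 13.9% of all genes tested in that fit.

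**Figure D2:**
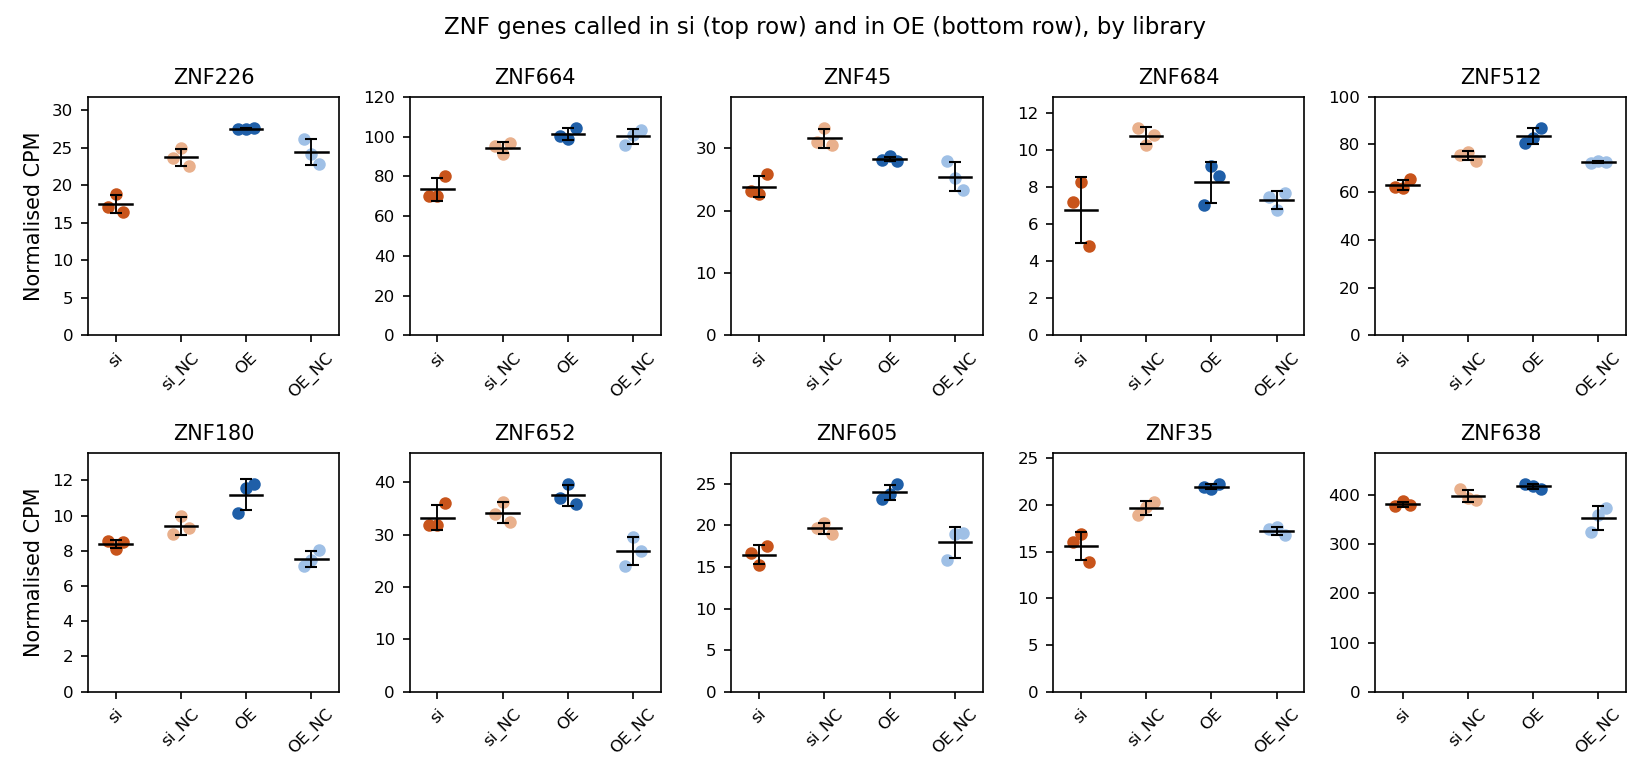
Normalised CPM in every library of the 5 ZNF genes that fell in si (top row) and the 5 that rose in OE (bottom row), with the group mean and SD (n = 3) as black bars. Each top-row gene has all si points below the si_NC points, and each bottom-row gene has all OE points above the OE_NC points.

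The whole set leaned one way in OE beyond the called genes. In OE 154 of the 210 members (73.3%) had a log2 difference above 0, against 49.3% of all genes tested, and the median member stood at 0.12 against -0.005 for all genes. All 3 OE libraries lay above all 3 OE_NC libraries for 62 members (29.5%), where 17.4% of all genes did so. They lay below for 12 members (5.71%), against 16% of all genes. Member differences in OE ran from -0.65 to 0.565, so none reached 2-fold.

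In si the lean was smaller and downward. A log2 difference above 0 was found for 84 members (40%), against 54% of all genes, and the medians were -0.03 and 0.025. All 3 si libraries lay below all 3 si_NC libraries for 37 members (17.6%), against 10.6% of all genes, and above for 8 members (3.81%), against 10.2%. The member differences ran from -0.67 to 0.52.

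**Figure D3:**
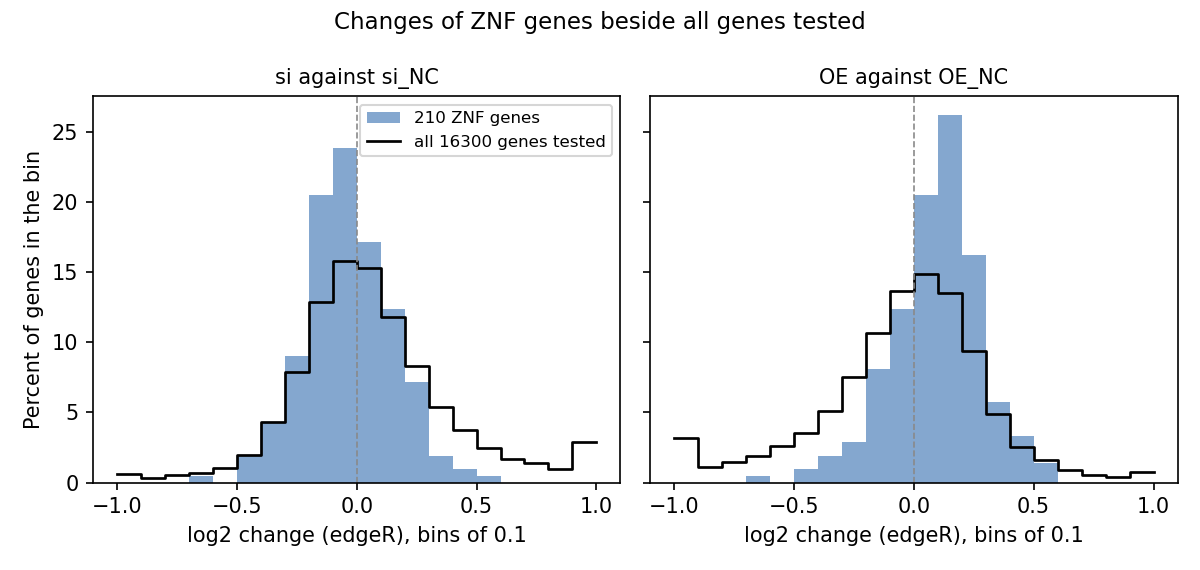
Share of genes in bins of log2 change (edgeR) for the 210 ZNF genes (filled bars) and all 16300 genes tested (line), in si against si_NC (left) and OE against OE_NC (right); the outer bins also hold values beyond them. ZNF genes have fewer values in the outer bins than all genes in both panels, with a median of 0.12 in OE and -0.03 in si.

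Without si replicate 3 and si_NC replicate 2, 151 members (71.9%) were above 0 in OE, against 47.2% of all genes, and 89 (42.4%) in si, against 52.6%.

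These leans are relative to the scaling of the libraries. Scaling by library totals in place of TMM moved the median of all genes by 0.08 in si and -0.06 in OE. The member median was then 0.05 in si, beside 0.10 for all genes, and 0.06 in OE, beside -0.06 for all genes. The sign of the member median in si thus follows the scaling. Members stayed below all genes in si and above them in OE, but a change of scaling moves all genes nearly alike and cannot test this. With library totals, 63.3% of members were above 0 in si against 66.7% of all genes, and 63.3% in OE against 40.8%. Summed over members, the level was 3852.5 ± 39.2 normalised CPM in si and 4112.3 ± 44.9 in si_NC, and 4285.4 ± 56.7 in OE and 3946.6 ± 36.1 in OE_NC (SD, n = 3 each). As a plain share of counts it was 0.393 ± 0.0058% in si and 0.397 ± 0.00475% in si_NC, closer than the spread within these groups. In OE the share was 0.424 ± 0.00569%, against 0.405 ± 0.00536% in OE_NC.

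Gene length moved with the OE result. Over all genes tested with exons in the range of the 70 longest members (5416 to 19370 bases), the median log2 difference in OE was 0.12, and in the range of the 70 shortest (748 to 3382 bases) it was -0.07. Members within those ranges had medians of 0.15 and 0.05. With an offset for exon length in the fit, 3 members were called in OE, and the member median was 0.075 against 0.02 for all genes. In si the same offset gave 12 calls, all lower, which is 5.71% of the members beside 6.71% of all genes. In OE its 3 calls are 1.43% of the members beside 3.31% of all genes.

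Abundance moved with both results. Among the 70 members highest by CPM (14.3 to 387 CPM), 13 of 70 were above 0 in si and 56 of 70 in OE, with medians of -0.09 and 0.14. All genes of that CPM range had medians of -0.04 in si and 0.04 in OE. Among the 70 lowest (2.09 to 5.82 CPM), 40 of 70 members (57.1%) were above 0 in si and 50 of 70 (71.4%) in OE, with medians of 0.04 and 0.09. All genes of that lower range had medians of 0.086 in si and -0.036 in OE, with 62.9% and 44.7% above 0. Between the controls the member medians were 0.19 for the 70 lowest and -0.10 for the 70 highest. All genes of those ranges had 0.08 and -0.08 between the controls. Of the 10 calls, 4 of the 5 in si and 4 of the 5 in OE were among the 70 highest. The share of all genes called in that CPM range was not counted, so these counts do not tie calls among members to abundance.

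A direct test of the difference between both experiments, the OE change minus the si change, called 15 members, and in all of them the OE change was the higher one. These make up 7.14% of the members, against 8.41% of all genes called in either direction, 4.29% with the OE change higher and 4.12% with it lower. At an unadjusted p under 0.05 the OE change was higher for 48 members (22.9%) and lower for 5 (2.38%), against 12% and 12.4% of all genes. DESeq2 called 23 members, among 1956 genes called in the whole table, and likewise no member with the OE change lower. The 15 held the 5 that fell in si, the 5 that rose in OE, and ZNF131, ZNF583, ZNF740, ZNF330 and ZNF326, which were called in neither.

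ZNF131 shows the pattern of that last group. It had 54.9, 62.5 and 60.1 normalised CPM in si, against 71.1, 68.6 and 71.5 in si_NC, and 68.7, 72.0 and 71.7 in OE, against 60.7, 59.6 and 58.3 in OE_NC. Both pairs of groups were apart, in opposite directions, and the changes differed by 0.50 on the log2 scale (standard error 0.096, edgeR adjusted p = 0.00737). ZNF583, a KRAB protein in human on chromosome 18 (63746876 to 63765260), had 14.3, 15.6 and 19.5 normalised CPM in si and 24.0, 19.4 and 23.0 in si_NC. In OE it had 22.1, 22.6 and 20.1, against 17.8, 19.1 and 17.7 in OE_NC, and the difference of changes was 0.67 (edgeR adjusted p = 0.0211). For ZNF583 the groups overlapped by a small margin in si, where replicate 3 reached the lowest si_NC library.

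Of the 15, ZNF512, ZNF131, ZNF226, ZNF180, ZNF605 and ZNF35 were called in all 12 refits that left out a library, and ZNF45 was lost in 1. The other 8 were lost in at least 4 refits. The count of members called was 7 without si replicate 1, si replicate 2 or OE replicate 2, 8 without si_NC replicate 3 or OE replicate 1, and 9 without si_NC replicate 1, OE replicate 3 or OE_NC replicate 2. It was 10 without OE_NC replicate 1, 12 without OE_NC replicate 3, 17 without si_NC replicate 2 and 21 without si replicate 3. Over all genes, 1371 calls in the main fit became 588 to 2152 in these 12 refits. With the pair that stood apart left out together, 24 members were called (11.4%, beside 13.8% of all genes). Of these members 2 had the OE change lower, and all 15 were among them. Over all 210 members, 94 had a log2 value below 0 in si and above 0 in OE, 24 had the opposite signs and 92 had the same sign in both. In edgeR none of the members both fell in si and rose in OE. DESeq2 called 3 such members, and at an unadjusted p under 0.05 edgeR gave 7. These signs and calls were not counted over all genes, so whether members differ from all genes in them is not known. Scaling by library totals left 8 of the 15 and called 2 members with the OE change lower, and the median was then -0.003 over members and -0.16 over all genes, against 0.13 and -0.025 with TMM. The gap between members and all genes was about the same under both scalings, which move all genes nearly alike and so cannot test it.

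**Figure D4:**
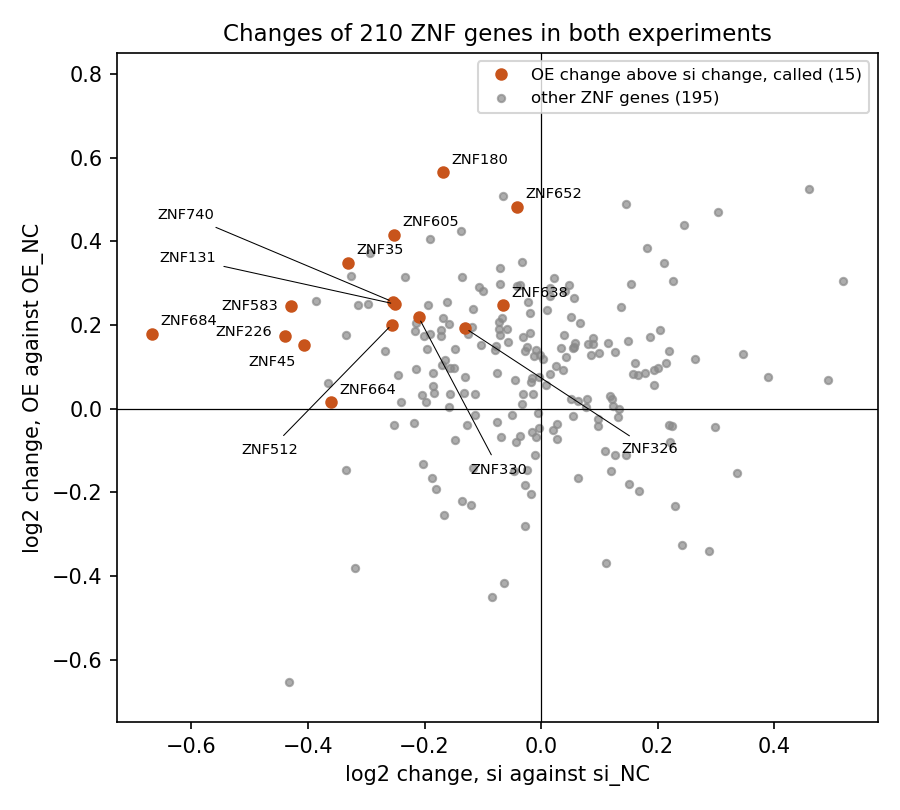
Log2 change of each of the 210 ZNF genes in si against si_NC (horizontal) and in OE against OE_NC (vertical); orange points are the 15 genes whose changes differed between the experiments (edgeR), grey points the other 195. All 15 lie in the upper left, with values above 0 in OE and below 0 in si.

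The cluster around ZNF45 on chromosome 18 held 3 of the 15, and it is described because it holds genes called. Within 500 kb of its start lie 11 members, itself included, and 2 ZNF genes under the threshold. In si 9 of the 11 had a log2 value below 0, with a median of -0.17, and in OE 9 of the 11 had one above 0, with a median of 0.15, beside 126 of 210 members below 0 in si and 154 above 0 in OE. These counts include ZNF428, lower in both, and ZNF575, higher in both. ZNF45 and ZNF226 were called in si and ZNF180 in OE, and no other gene of the cluster was called in either. ZNF227 and ZNF233, which share exon bases and so are not separate measures, had log2 values of -0.16 and -0.11 in si. In OE these 2 genes had 0.255 and 0.29. ZNF575, ZNF576 and ZNF428 lie apart from the other 8 in the direction of lower coordinates and did not share the pattern of signs: ZNF428 had -0.32 in si and -0.38 in OE, and ZNF576 0.15 in si and -0.18 in OE. Over all 97 members with at least 2 ZNF neighbours the medians were -0.03 in si and 0.13 in OE, beside -0.04 and 0.11 for the 80 with none.

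**Figure D5:**
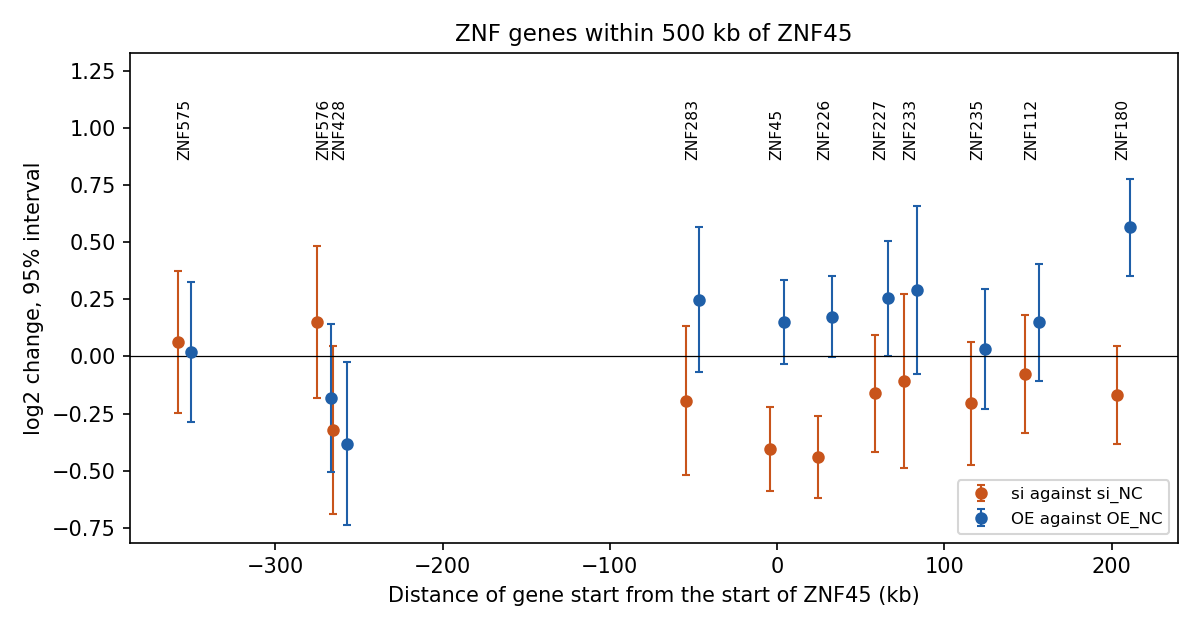
Log2 change with its 95% interval in si against si_NC (orange) and OE against OE_NC (blue) of the 11 ZNF genes within 500 kb of ZNF45, by distance of their starts from its start in kb. From ZNF283 to ZNF180 every orange point lies below 0 and every blue point above 0.

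Among ZNF genes known from the fat cell lineage, the rise of ZNF638 in OE was the single call in either experiment, by edgeR and by DESeq2. In si edgeR gave 1 of them as higher at an unadjusted p under 0.05. The list holds 6 genes, of which 5 were tested and ZNF467, at 0.0734 CPM, was too low. ZNF423, whose mouse counterpart marks cells committed to the fat lineage, had 6.15, 6.90 and 8.72 normalised CPM in si and 4.19, 7.10 and 5.34 in si_NC. These groups overlapped, with a log2 difference of 0.39 (standard error 0.178, edgeR adjusted p = 0.253). In OE it had 9.78, 8.66 and 7.36, against 8.05, 8.37 and 8.08 in OE_NC, with a log2 difference of 0.08 (edgeR adjusted p = 0.829).

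ZNF521, which opposes ZNF423 in mouse preadipocytes, averaged 5.44 ± 0.793 normalised CPM in OE and 4.46 ± 0.5 in OE_NC (SD, n = 3 each), a log2 difference of 0.29 that did not pass (edgeR adjusted p = 0.371). It averaged 3.26 ± 0.915 in si and 3.21 ± 0.31 in si_NC. ZNF516, a brown fat factor in mouse, and ZNF395 had log2 differences of 0.24 and 0.19 in OE and 0.14 and 0.20 in si, all short of the threshold. The median over the 5 genes tested was 0.24 in OE and 0.14 in si. Over all genes the medians were -0.005 and 0.025, and over the 210 members 0.12 and -0.03.

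The 10 genes listed for RNA, ribosomes, the spindle or SUMO held the 2 members most abundant per length, ZNF622 and ZNF326. None of the 10 was called in si or in OE. ZNF638, which also binds RNA and was called in OE, is counted in the fat cell list. At an unadjusted p under 0.05 edgeR gave 2 lower in si, and 2 higher and 2 lower in OE, while DESeq2 called none in either. ZNF622 had 185.7, 191.9 and 148 normalised CPM in si and 221.6, 198.3 and 243.1 in si_NC, a log2 difference of -0.335 with a standard error of 0.136 and an edgeR adjusted p of 0.197. Its si libraries were all lower, but the spread within each group was wide. ZNF326 had 278.2, 294.7 and 283.5 in si and 332.4, 300.8 and 304 in si_NC, and 378.8, 374.5 and 370.5 in OE against 307.6, 348.4 and 327.6 in OE_NC. It was called in the difference of changes (0.32, edgeR adjusted p = 0.0479), as was ZNF330 (0.43, edgeR adjusted p = 0.0459).

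None of the remaining genes of that list passed the test in si or OE. ZNF207, a kinetochore protein needed for chromosome alignment, had log2 differences of -0.01 in si and -0.11 in OE. ZNF451, a SUMO ligase, had -0.01 in both. ZNF598, the ubiquitin ligase that senses collided ribosomes, had -0.18 in si and -0.19 in OE, ZNF593 -0.06 and -0.42, ZNF346, which binds double-stranded RNA, 0.16 and 0.11, ZNF277 -0.04 and -0.065, and ZNF706 -0.085 and -0.45. The edgeR adjusted p-values of these 7 genes in si and OE lay between 0.139 and 0.98.

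Of the 8 partners of chromatin complexes, ZNF512 was the single call in si, and none was called in OE, where DESeq2 called 1 higher and 3 were higher at an unadjusted p under 0.05 (edgeR). ZNF592, ZNF687 and ZNF532, which are found with the reader protein ZMYND8 in human cells, had log2 differences in OE of 0.04, -0.11 and 0.01. ZNF827, a partner of the nucleosome remodelling complex NuRD, averaged 16.3 ± 0.796 normalised CPM in OE (SD, n = 3) and 13.3 in OE_NC, a log2 difference of 0.30 (edgeR adjusted p = 0.132). ZNF644, a partner of the methyltransferases EHMT1 and EHMT2, had 0.19 in OE and -0.07 in si. ZNF217, a partner of the demethylase complex CoREST, had 0.004 in OE and 0.08 in si. ZNF410, known in human cells for activating CHD4, had -0.02 in OE and 0.05 in si, with the limit that it shares exons with FAM161B.

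Of the 9 promoter and housekeeping factors none was called in si or OE by edgeR or DESeq2, and ZNF740 was called in the difference of changes (0.51, edgeR adjusted p = 0.0259). With an unadjusted p under 0.05, edgeR gave 3 lower in si and 3 higher in OE. ZNF740 had 16.0, 17.4 and 18.0 normalised CPM in si, against 21.2, 18.8 and 21.3 in si_NC, and 18.7, 17.9 and 19.2 in OE, against 14.65, 15.2 and 16.9 in OE_NC. The groups were apart in both experiments, si lower and OE higher. ZNF143 and ZNF76, paralogous activators of small nuclear RNA promoters, had log2 differences of 0.22 and 0.08 in OE and -0.07 and 0.17 in si. ZNF711 had 0.17 and -0.20, ZNF148 0.16 and -0.06, ZNF281 0.095 and -0.21, ZNF24 0.22 and -0.17, ZNF384 -0.17 and 0.06, and ZNF335 -0.06 and -0.02. The median over the 9 was 0.16 in OE and -0.07 in si. Over all genes the medians were -0.005 and 0.025, and over the 210 members 0.12 and -0.03. ZNF503, a repressor of the NET subfamily, had -0.14 in OE and -0.12 in si, and its relative ZNF703 averaged 1.121 CPM and is not a member.

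The machinery that KRAB proteins recruit was present throughout, and 4 of its 31 genes tested were called in OE and none in si, where 4.47% and 2.54% of all genes were called. The most abundant were the remodellers CHD4 (1245 CPM) and CHD3 (692.7 CPM), the histone chaperone DAXX (514.6 CPM) and RBBP7 (472.7 CPM). TRIM28, the scaffold itself, fell in OE: it averaged 48.5 ± 1.13 normalised CPM in OE (SD, n = 3) and 60.2 in OE_NC, a log2 change of -0.31 (standard error 0.081, edgeR adjusted p = 0.043). The HP1 protein CBX1 rose by a log2 change of 0.29, the methyltransferase EHMT2 by 0.30 and the remodeller ATRX by 0.45, with edgeR adjusted p-values of 0.0294, 0.0301 and 0.0259. The TRIM28 call was lost in all 6 refits that left out a library and each of the other calls in 5 of 6, while no direction turned. With library totals EHMT2 missed the threshold (edgeR adjusted p = 0.0594).

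The median over the 31 genes was 0.08 in OE and -0.04 in si. In si, where edgeR called none, 9 were lower and 1 higher at an unadjusted p under 0.05, against 9.88% and 9.03% of all genes, and DESeq2 called 3 lower. Without si replicate 3 and si_NC replicate 2, edgeR called 4 lower in si, and 5 higher and 2 lower in OE. In that fit 6.7% of all genes were called in si and 13.9% in OE. In the difference of changes CBX1, EHMT2, ATRX and MPHOSPH8, a subunit of the HUSH silencing complex, were called with the OE change higher (log2 differences of 0.46, 0.50, 0.67 and 0.45), in all 12 refits each. TRIM28 was called the other way with -0.39 (edgeR adjusted p = 0.0494), a call lost in 11 of 12 refits. Of all genes tested, 8.41% were called in the difference of changes. The controls differed in 6 of the 31 genes as well, where 19.7% of all genes were called between them. CBX1, MPHOSPH8, ATRX, ATF7IP and RBBP7 were lower in OE_NC than in si_NC and MORC2 higher. The log2 differences were -0.365 for CBX1 and -0.39 for MPHOSPH8 (edgeR adjusted p = 0.0019 and 0.00121), both called in all 6 refits, and -0.295 for ATRX (edgeR adjusted p = 0.0452). They were -0.27 for ATF7IP, -0.205 for RBBP7 and 0.23 for MORC2, and these 3 calls and that of ATRX were lost in at least 4 of 6 refits.

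More ZNF genes were called between both negative controls than in either experiment. In OE_NC against si_NC 14 members were higher and 15 lower, 29 in all (13.8%), against 19.7% of all genes called in either direction, 9.49% higher and 10.2% lower. At an unadjusted p under 0.05, 32 members (15.2%) were higher and 24 (11.4%) lower, against 17.2% and 16.9% of all genes. The reagents, and any difference in handling between the experiments, cannot be told apart in this comparison. Scaling by library totals moved the median of all genes by 0.09, and the calls were then 27 higher and 3 lower. Leaving out any one of the 6 control libraries left between 10 members called (without OE_NC replicate 2) and 19, with 12 without si_NC replicate 1 and 18 without si_NC replicate 3. With si replicate 3 and si_NC replicate 2 left out together 34 were called (16.2%, beside 23.5% of all genes).

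ZNF419, a KRAB protein in human on chromosome 18 (64698022 to 64705558), had the largest difference of any member in any comparison. It had 10.8, 10.3 and 10.5 normalised CPM in OE_NC, against 5.36, 5.34 and 6.08 in si_NC, with a log2 difference of 0.91 (standard error 0.108, edgeR adjusted p = 0.000139). It followed the experiment and not the treatment, with 10.1, 10.1 and 9.86 in OE and 5.71, 6.30 and 5.06 in si. ZNF346 and ZNF414 were also higher in OE_NC, by 0.69 and 0.70 on the log2 scale (edgeR adjusted p = 0.00208 and 0.00666), as was ZNF423 by 0.56 (edgeR adjusted p = 0.0377). ZNF568, whose mouse counterpart silences a placental promoter of Igf2, averaged 18.9 ± 0.648 normalised CPM in OE_NC and 14.0 ± 1.85 in si_NC, a log2 difference of 0.44 (edgeR adjusted p = 0.00657).

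The other members named as higher in OE_NC were ZNF382, ZNF41, ZNF319, ZNF593, ZNF311 and ZNF572, with log2 differences between 0.30 and 0.59 (edgeR). Lower in OE_NC were ZNF316 by a log2 difference of -0.40 (edgeR adjusted p = 0.00387), ZNF740 by -0.39 and ZNF106 by -0.275 (edgeR adjusted p = 0.00828 and 0.00896). ZNF652, ZNF768, ZNF45, ZNF131, ZNF684, ZNF629 and ZNF609 followed, between -0.24 and -0.56, and ZNF598 with -0.31 lay just under the threshold. ZNF419, ZNF346, ZNF414, ZNF568, ZNF316, ZNF740 and ZNF106 were called in all 6 refits that left out a library, and the other 16 named were lost in at least 1.

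Several members of the OE and si results are thus also genes in which the controls differ, and the comparisons share those control libraries. ZNF652 averaged 26.8 ± 2.71 normalised CPM in OE_NC and 34.2 ± 1.96 in si_NC (SD, n = 3 each), while OE averaged 37.5 ± 1.98 and si 33.2 ± 2.38. ZNF180 was lower in OE_NC than in si_NC by a log2 difference of -0.32 and ZNF684 by -0.56 (edgeR adjusted p = 0.0393 and 0.0243). Of the 29 members called between the controls, 2 were also called in si and 2 in OE. Both controls also enter the difference of changes. Among the 15 members called there, ZNF652, ZNF740, ZNF45, ZNF131, ZNF684 and ZNF180 were called lower in OE_NC than in si_NC. Of all 210 members, 172 were called in none of the 4 comparisons.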

How the data were processed

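Deposited by the authors were whole read counts for each gene in 12 libraries, and RPKM values that equalled those counts divided by exon length and library total to a relative difference of 5.2e-15. Tools named in the submitters' processing notes are fastp 0.23.0 for reads and, for counts, featureCounts (Subread 1.5.1). Not given in the sources used here were the genome build, the aligner, which strand was counted and how multiply mapping reads were treated. Groups came from the sample titles, and 0 columns were left unmapped. CPM are counts over library total; normalised CPM use TMM factors. A further 2 entries naming no gene (0.0868 to 0.116% of counts) were left out.

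Differences were tested on counts with edgeR 4.0.16 in R 4.3.3: filterByExpr (minimum count 10, minimum total 15), TMM, and its quasi-likelihood F test, fitted over all 12 libraries together with 8 residual degrees of freedom, with Benjamini-Hochberg adjustment over 16300 genes and a threshold of 0.05. "Refits" repeat it without 1 library of the groups compared. DESeq2 1.42.0 and limma 3.58.1 on log2(RPKM + 1) were alternatives. The edgeR step was tested on simulated data.

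The members, gene lists and tests were chosen with earlier results of these data known. Members named are the 15 with the highest mean RPKM; per comparison and direction up to 10 called (or, under 5 called, the 5 smallest p); role-list members with at least 5 CPM or a call; and 3 on each side of the 2 CPM threshold. Outside this rule, and chosen after their values were seen, are the other role-list members (ZNF521, ZNF516, ZNF395, ZNF687) and the neighbours of ZNF45. Coordinates are those of the count table; chromosome names were taken by matching symbols to a RefSeq gene table, where 207 of 210 members (98.6%) were found. Intervals are 95%.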

Additional observations from a re-analysis of the deposited data

Results flagged for a closer look

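For 15 ZNF genes the change in OE differed from the change in si in edgeR's test of the difference itself, always with the OE change higher. All are descriptions of the same 4 groups of 3 libraries. Both controls enter this difference, and ZNF652, ZNF740, ZNF45, ZNF131, ZNF684 and ZNF180 were also called lower in OE_NC than in si_NC.

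Among the 5 genes that fell in si, the difference of log2 changes was 0.614 for ZNF226 (0.174 in OE, -0.44 in si), 0.377 for ZNF664 (0.016 in OE, -0.36 in si) and 0.558 for ZNF45 (0.152 in OE, -0.406 in si). It was 0.846 for ZNF684 (0.179 in OE, -0.668 in si) and 0.458 for ZNF512 (0.201 in OE, -0.256 in si).

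Among the 5 genes that rose in OE, it was 0.734 for ZNF180 (0.565 in OE, -0.169 in si), 0.525 for ZNF652 (0.483 in OE, -0.042 in si) and 0.669 for ZNF605 (0.416 in OE, -0.253 in si). It was 0.681 for ZNF35 (0.349 in OE, -0.332 in si) and 0.311 for ZNF638 (0.247 in OE, -0.065 in si).

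The genes called in neither experiment were ZNF131 at 0.502 (0.25 in OE, -0.251 in si), ZNF583 at 0.674 (0.245 in OE, -0.429 in si) and ZNF740 at 0.509 (0.255 in OE, -0.254 in si). ZNF330 stood at 0.428 (0.218 in OE, -0.21 in si) and ZNF326 at 0.322 (0.192 in OE, -0.13 in si).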

How the results depend on the processing

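Calls among the 210 ZNF genes moved with the processing, and no called gene that is named changed sign. In si, with 5 called, the count was 8 with DESeq2 size factors, 2 with library totals, 10 with DESeq2's Wald test, 0 with the compared groups alone, 1 with limma on log2(RPKM + 1) and 1 with a pseudocount of 0.1. It was 12 with an offset for exon length, 9 with si replicate 3 and si_NC replicate 2 left out together (chosen after seeing the data), 1 at a change of at least 1.5-fold, and 0 to 9 with 1 library left out. In OE, with 5 called, it was 15 with DESeq2's test, 9 with no filter on low counts, 11 with the compared groups alone, 1 and 1 with limma at either pseudocount, 3 with the length offset, 19 with that pair left out, 0 at 1.5-fold, and 0 to 6 with 1 library left out. For the difference of changes, with 15 called, it was 23 with DESeq2's test, 7 and 7 with limma, 24 with that pair left out, 6 at 1.5-fold, and 7 to 21 with 1 library left out. Between the controls, with 29 called, it was 15 with the compared groups alone, 4 at 1.5-fold, and 10 to 19 with 1 library left out; limma at either pseudocount called 24 higher and 3 lower. A filter of 2 CPM in 3 libraries, halved counts and member thresholds of 1 or 5 CPM kept every count within 1.5 times. Calls over all genes tested moved too. In si, 414 became 495 with DESeq2 size factors, 404 with library totals, 329 and 324 with limma, and 112 at 1.5-fold. In OE, 728 became 1679 with no filter, 1621 with the compared groups alone, 612 and 523 with limma, and 269 at 1.5-fold. For the difference of changes, 1371 became 1425 and 1397 with limma. The causes were not tested, apart from the fewer libraries in refits.

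The main fit used no pairing by replicate number. Same-numbered libraries of different groups correlated between -0.257 and 0.279 in their deviations from group means. Differently numbered libraries were not set beside these, so the values do not decide whether the numbers pair the libraries. With the replicate number as a block, 3 members were called in si, 6 in OE, 12 in the difference of changes and 27 between the controls.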

Other observations

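Other zinc finger families leaned the same way in OE, by description only. Of genes with a mean of at least 2 CPM, the log2 value in OE was above 0 for 27 of 32 ZBTB genes (median 0.11), 9 of 10 ZSCAN genes (median 0.24), 5 of 6 ZKSCAN genes (median 0.18), 10 of 12 ZFP genes (median 0.11) and 8 of 10 KLF genes (median 0.06), beside 154 of 210 ZNF genes (median 0.12). ZFP57, a KRAB protein that guards imprinted methylation in mouse and human, rose in OE (log2 change 0.25, edgeR adjusted p = 0.0345). In si, ZFP91 fell (log2 change -0.38, edgeR adjusted p = 0.0163) and ZFP36, a protein that destabilises messenger RNA and is no DNA-binding zinc finger, rose (log2 change 1.01, edgeR adjusted p = 0.0127). Scaling by library totals moved the median of all genes in OE by -0.06, about as much as the median of the KLF genes.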
